A study of Mus musculus with 3 samples.

Results

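Imiquimod is a small-molecule agonist of Toll-like receptor 7, and its topical use on mouse skin gives a psoriasis-like dermatitis. The 9 genes described here encode receptors of this family and proteins that work with them, and were taken by symbol: the endosomal receptors Tlr7, Tlr8 and Tlr9, the surface receptors Tlr2 and Tlr4, the co-receptor Cd14, the receptor chaperone Unc93b1, the adaptor Myd88 and the transcription factor Irf5. Each of the 9 symbols had 1 row among the 31053 genes of the deposited matrices, and each had at least 1 UMI in the cells kept.

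The data are single-cell libraries of 3' transcripts from dorsal skin of C57BL/6 mice aged 7 weeks, made to study how celastrol acts in psoriasis. There were 3 libraries with 1 per group. Control skin received glycerin (normal), 1 group received imiquimod (IMQ), and another received celastrol together with imiquimod (IMQ+celastrol, which the study abbreviates CE). All groups shared the strain, and the labels give no genotype, dose, duration or number of animals. With 1 library per group, no difference between libraries has a replicate check and no test was possible.

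Toll-like receptors recognise molecules of microbes and of damaged cells. Tlr7 and Tlr8 belong to the receptors that read single-stranded RNA and Tlr9 reads unmethylated CpG DNA, all inside endosomes, where Unc93b1 carries them. Tlr2 and Tlr4 sit mainly at the cell surface, where Cd14 hands bacterial lipids to them. Most of these receptors signal through the adaptor Myd88, which leads to NF-kB activity and, through Irf5, to transcription of inflammatory cytokine genes.

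The cells that passed filters numbered 9558 (normal), 7495 (IMQ) and 6092 (IMQ+celastrol), with medians of 5740, 8862 and 10558 UMIs. The cells were grouped into classes here, from marker genes that include none of the 9 genes, so the class names carry "-like" and may differ from those of the study. Normal shared 26 cell barcodes with IMQ and 15 with IMQ+celastrol, and IMQ shared 23 with IMQ+celastrol. Clusters left unnamed held 24.8%, 16.4% and 27.2% of the kept cells. The monocyte or macrophage-like class held 127, 551 and 95 cells, with medians of 1811, 6809 and 5213 UMIs. It joined a tissue macrophage-like cluster led by Pf4, C1qb and Mrc1 (108, 58 and 16 cells) to an inflammatory monocyte-like cluster led by Chil3, Lyz2 and Ly6c2 (19, 493 and 79 cells), so most of the class was of a different kind in the normal library than in the other libraries. Levels are given as UMIs per 1000000 UMIs of the class (CPM), with exact Poisson 95% intervals, and ratios carry exact conditional binomial 95% intervals. These intervals cover counting error only, not the spread between animals or between cells. A class with 0 UMIs is given with the level that 3 UMIs of its total would make, the limit that a count of 0 allows.

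In the GENCODE annotation of GRCm38, Tlr7 (chrX:167304929-167330558) and Tlr8 (chrX:167242696-167264329) are neighbours on the minus strand of chromosome X, with 40599 bases between them. Tlr9 lies at chr9:106222598-106226883 on the plus strand, and Myd88 at chr9:119335934-119341411 on the minus strand. Tlr2 lies at chr3:83836272-83841767 (minus), Tlr4 at chr4:66827584-66930284 (plus), Unc93b1 at chr19:3935186-3949340 (plus) and Irf5 at chr6:29526625-29541871 (plus). Myd88 overlaps Slc22a14 on its own strand and Acaa1a on the other, and Irf5 overlaps Tnpo3 on the other strand. Whether the counting used strand is not given in the sources used here, so reads in those overlaps cannot be assigned with certainty.

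RefSeq promoter windows on GRCm38.p6 were found for 5 of the 9 genes: Tlr8, Tlr9, Tlr2, Myd88 and Irf5. The 250 bases before each start were searched on both strands for GGGNNTTCC (a kB-type motif), GAAANNGAAA (an interferon-response type) and GAGGAA (a purine box). The 3 windows below are shown because Tlr2 and Myd88 are the receptor and adaptor with the most classes at a higher level in the IMQ library, and because most Tlr8 UMIs were in myeloid cells. Bases annotated as exon in any transcript were left out, each line reads 5′ to 3′ along the gene's strand, and capitals mark the motif.
Tlr2, chr3:83841768-83841858, minus strand: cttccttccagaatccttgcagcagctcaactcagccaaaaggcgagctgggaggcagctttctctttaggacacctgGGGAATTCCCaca
Myd88, chr9:119340042-119340268, minus strand: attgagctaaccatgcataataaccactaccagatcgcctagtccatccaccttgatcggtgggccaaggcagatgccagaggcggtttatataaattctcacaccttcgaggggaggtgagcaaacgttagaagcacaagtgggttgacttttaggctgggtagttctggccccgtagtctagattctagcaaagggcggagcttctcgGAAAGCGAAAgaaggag
Tlr8, chrX:167264330-167264579, minus strand: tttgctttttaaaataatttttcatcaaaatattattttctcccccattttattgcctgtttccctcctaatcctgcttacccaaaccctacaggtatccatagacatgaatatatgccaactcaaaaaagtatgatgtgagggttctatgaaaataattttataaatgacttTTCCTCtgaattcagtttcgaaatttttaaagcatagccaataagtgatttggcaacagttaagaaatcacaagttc

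In the Tlr2 window the kB-type motif matched on both strands in overlapping places, 172 to 163 bases before the RefSeq start. The Myd88 window held 1 interferon-response type match 40 to 31 bases before the RefSeq start, and lies inside the longer GENCODE span of the gene. The purine box matched once in the Tlr8 window (77 to 72 bases before the start, on the opposite strand) and once in the Tlr9 window (112 to 107 bases before). None of the 3 motifs matched in the Irf5 window. Over 32851 promoter windows of this length, the kB-type motif was present in 4.98%, the interferon-response type in 2.98% and the purine box in 23.3%. GC content was taken over all 250 bases, including the exon bases left out of the printed sequences. It was 31.2% for Tlr8, 50.4% for Tlr9, 62.8% for Tlr2, 51.2% for Myd88 and 72.0% for Irf5, against a median of 52.4% over all windows. A match of letters describes the window and does not show that a factor binds there.

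Tlr7, the receptor for imiquimod, was detected mainly in monocyte or macrophage-like cells in every library. Its UMIs over all kept cells numbered 18 (normal), 120 (IMQ) and 25 (IMQ+celastrol), or 0.266, 1.11 and 0.261 CPM. The level over all cells was thus 4.17 times as high in the IMQ as in the normal library (interval 2.53 to 7.28), and its ratio in IMQ+celastrol against IMQ was 0.235 (0.146 to 0.364). Monocyte or macrophage-like cells held 12 of the 18, 99 of the 120 and 15 of the 25. That class made up 1.33%, 7.35% and 1.56% of the kept cells.

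Over the class as a whole, the Tlr7 level was not higher in the IMQ library. Its 12 UMIs in the normal library gave 41.7 CPM (21.6 to 72.9), its 99 in the IMQ library 27.5 CPM (22.4 to 33.5) and its 15 in the IMQ+celastrol library 30.1 CPM (16.9 to 49.7). The 3 intervals overlap. The IMQ level was 1.52-fold lower than the normal one with an interval of 0.758 to 2.77 that includes 1, and with each library clustered by itself the direction turned, to a log2 ratio of 0.16. IMQ+celastrol against IMQ gave a ratio of 1.09 (0.591 to 1.89). A change within this class of less than about these bounds was not detectable at this depth. The class held 108 tissue macrophage-like and 19 inflammatory monocyte-like cells in normal, and 58 and 493 in IMQ. The part of this make-up in the Tlr7 ratios was not tested.

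Per cell, 11 of 127 normal, 82 of 551 IMQ and 13 of 95 IMQ+celastrol monocyte or macrophage-like cells had a Tlr7 UMI, shares of 8.66% (exact Clopper-Pearson interval 4.40 to 14.97), 14.9% (12.01 to 18.1) and 13.7% (7.49 to 22.3). The most UMIs in 1 cell were 2, 3 and 3. Keratinocyte-like cells, taken as a class that should lack the gene, had shares of 0%, 0.199% and 0.0752% at medians of 8686, 41376 and 30852.5 UMIs per cell. These medians are above those of the monocyte or macrophage-like cells, so the shares in that class stand above this background in each library. With every cell thinned to 2000 UMIs and shallower cells left out, the shares in monocyte or macrophage-like cells were 9.84% (6 of 61), 4.46% (20 of 448) and 2.70% (2 of 74). The order of the libraries thus depended on depth, and the CPM values give no higher level in IMQ.

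Neutrophil-like cells were the next class in the IMQ library, with 8 Tlr7 UMIs in 7 of 141 cells (11.3 CPM, 4.90 to 22.3). The 69 neutrophil-like cells of the IMQ+celastrol library had 0, which allows up to 14.4 CPM and a share of up to 4.35%, so the levels of these libraries could not be told apart. The normal library held only 7 neutrophil-like cells. T cell-like cells had 4, 3 and 2 Tlr7 UMIs and dendritic cell-like cells 1, 3 and 1. Fibroblast-like cells, the largest stromal class with 2455, 2704 and 1754 cells, had 1, 5 and 3 UMIs, or 0.0939, 0.175 and 0.173 CPM. Beyond the first place, the ratio of each class to the next one in the order had an interval that includes 1, except neutrophil-like against dendritic cell-like cells in IMQ (6.68 times, 1.60 to 39.1, from 8 and 3 UMIs).

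No Tlr7 UMI was found in pericyte or smooth muscle-like, blood endothelial-like, lymphatic endothelial-like or Schwann-like cells of any library. The limits differ widely. For pericyte or smooth muscle-like cells they were 3.997, 0.466 and 0.519 CPM, in the order of libraries used throughout (normal, IMQ, IMQ+celastrol), and for lymphatic endothelial-like cells 15.6, 2.13 and 2.98 CPM. Blood endothelial-like cells had limits of 4.26 and 3.26 CPM in normal and IMQ, and Schwann-like cells limits of 12.5, 11.9 and 10.1 CPM. The Schwann-like limits and the normal lymphatic one are within a few fold of the level in IMQ monocyte or macrophage-like cells, so these classes bound Tlr7 loosely. Keratinocyte-like cells had 0, 2 and 1 UMIs, with a limit of 0.198 CPM in the normal library.

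**Figure D1:**
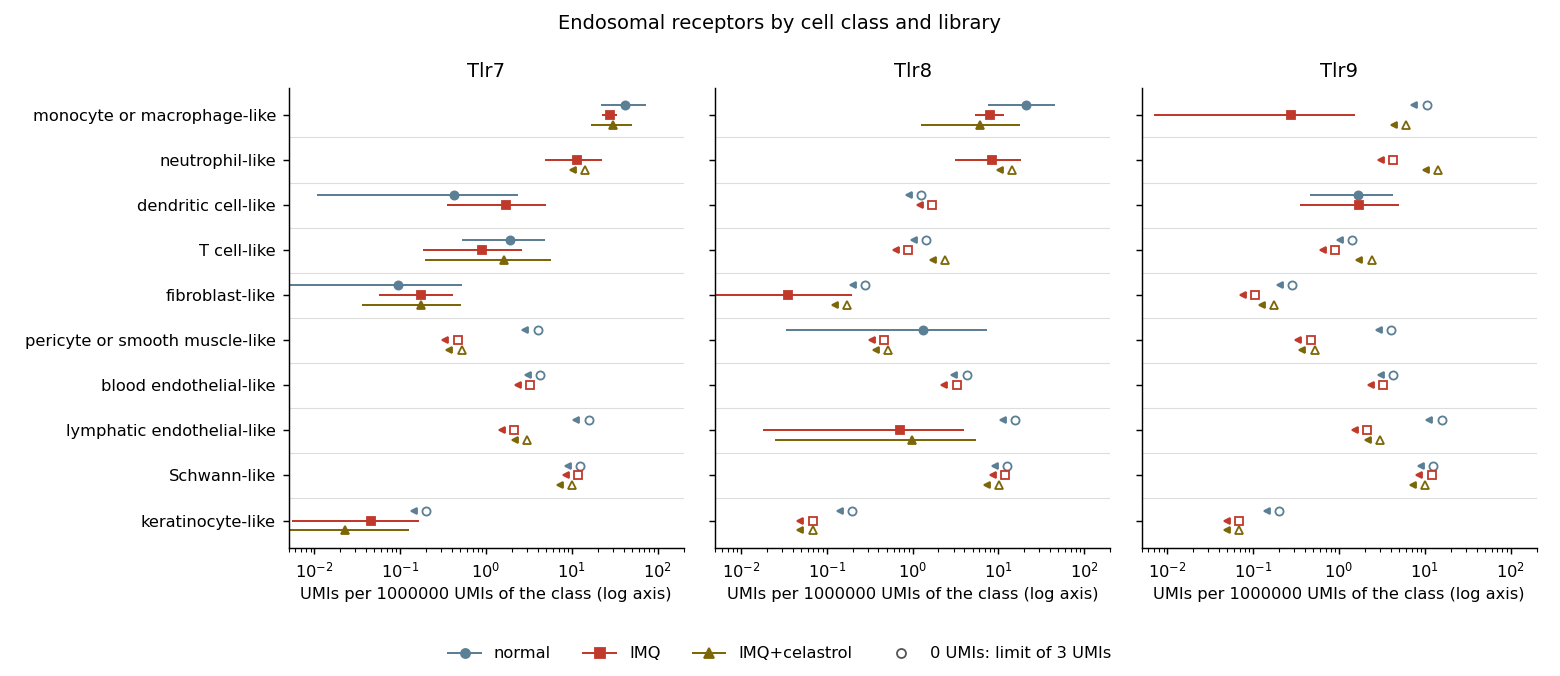
Levels of Tlr7, Tlr8 and Tlr9 (UMIs per 1000000 UMIs of the class, log axis) in 10 cell classes of each library, for classes with at least 50 cells in the library. Bars are exact Poisson 95% intervals, cut at the left edge of the axis where they run past it, and open symbols with an arrow are classes with 0 UMIs, drawn at the limit of 3 UMIs. Tlr7 was highest in monocyte or macrophage-like cells of each library, Tlr8 stood at overlapping levels in IMQ monocyte or macrophage-like and neutrophil-like cells, and most stromal classes were at 0.

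Tlr8, the second receptor of the RNA-reading pair, followed Tlr7 in where it was found at a smaller number of UMIs: 8, 38 and 4 over all kept cells. Monocyte or macrophage-like cells held 6, 29 and 3 of them, for 20.9 CPM (7.66 to 45.4), 8.06 CPM (5.40 to 11.6) and 6.03 CPM (1.24 to 17.6). The IMQ level was 2.59-fold lower than the normal one, with an interval of 0.878 to 6.34 that includes 1. Neutrophil-like cells of the IMQ library had 6 UMIs in 6 cells (8.51 CPM, 3.12 to 18.5), and those of the IMQ+celastrol library had 0. Single UMIs stood in normal pericyte or smooth muscle-like, IMQ fibroblast-like, and IMQ and IMQ+celastrol lymphatic endothelial-like cells. T cell-like and dendritic cell-like cells had none.

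Tlr9, the CpG DNA receptor, had 4, 4 and 0 UMIs in all kept cells, the fewest of the 9 genes. All 4 normal UMIs and 3 of the 4 in IMQ were in dendritic cell-like cells, at 1.67 CPM (0.456 to 4.29) and 1.70 CPM (0.350 to 4.96). The other was in an IMQ monocyte or macrophage-like cell. The 0 in the 32 dendritic cell-like cells of the IMQ+celastrol library allows up to 11.5 CPM, above both of those levels, so it shows no difference. Tlr9 was therefore compared in no class.

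Cells with a UMI of any of Tlr7, Tlr8 and Tlr9 numbered 28 of all normal cells, 134 of IMQ and 26 of IMQ+celastrol cells (0.293%, 1.79% and 0.427%). Among monocyte or macrophage-like cells they were 16 of 127 (12.6%, 7.38 to 19.7), 103 of 551 (18.7%, 15.5 to 22.2) and 16 of 95 (16.8%, 9.94 to 25.9). The intervals of the 3 libraries overlap, and depth was lowest in the normal one. In IMQ neutrophil-like cells the share was 9.22% (13 of 141). Only 1, 4 and 0 cells had UMIs of more than 1 of these receptors.

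Unc93b1, which escorts the endosomal receptors from the endoplasmic reticulum, was highest in monocyte or macrophage-like cells in all libraries. Its 161, 1333 and 178 UMIs there gave 560, 371 and 358 CPM, so the normal library was highest and the other libraries lay close together. IMQ was 1.51-fold lower than normal (1.27 to 1.78). Inside the tissue macrophage-like cluster alone the direction was the opposite, at 617, 704 and 835 CPM. Inflammatory monocyte-like cells had 304, 320 and 277 CPM. The lower class level in IMQ thus came with a larger part of cells from the cluster where Unc93b1 is lower in each library.

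Outside these cells Unc93b1 was lower at the level of classes. It had 73.7 CPM in IMQ and 76.6 CPM in IMQ+celastrol neutrophil-like cells, 47.3 and 61.7 CPM in normal and IMQ dendritic cell-like cells, and 23.9, 30.6 and 30.001 CPM in fibroblast-like cells of the 3 libraries. Within the dendritic cell-like class, Langerhans-like cells had 3 and 0 UMIs in normal and IMQ. Dermal dendritic-like cells had 65.8 and 241 CPM (301 and 56 cells), a larger difference than over the class. Keratinocyte-like cells held 3.63, 4.06 and 2.52 CPM, which was 1.61-fold lower in IMQ+celastrol than in IMQ (1.26 to 2.06).

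In the IMQ library, monocyte or macrophage-like cells with a Tlr7 UMI more often had UMIs of its partners, and were also deeper. The 82 cells with Tlr7 had a median of 8236.5 UMIs against 6150 in the other 469. Unc93b1 was present in 89.0% against 72.1%, Myd88 in 62.2% against 38.8%, Irf5 in 64.6% against 43.3%, and Cd14 in 81.7% against 68.2%. Tlr8 was present in 4.88% against 4.26%. In normal and IMQ+celastrol, with 11 and 13 cells with Tlr7, the shares of Myd88 and Irf5 were also higher in those cells. Unc93b1 went the other way in normal (45.5% against 63.8%). In IMQ+celastrol Cd14 (53.8% against 57.3%) and Tlr8 (0% against 3.66%) did so. The part of depth in these shares was not tested.

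Myd88, the adaptor shared by most of the receptors, was detected in every class compared and was higher in IMQ than in normal in 6 of its 9 classes by at least 1.5-fold. Monocyte or macrophage-like cells had 10, 371 and 66 UMIs, or 34.8, 103 and 133 CPM. The IMQ level was 2.97 times the normal one (1.60 to 6.24), and IMQ+celastrol against IMQ gave 1.29 (0.974 to 1.67). This class held 108 tissue macrophage-like and 19 inflammatory monocyte-like cells in normal, and 58 and 493 in IMQ. The part of that difference in the Myd88 ratio was not tested. Dendritic cell-like cells had 37.7 CPM in normal and 83.2 in IMQ (2.21 times, 1.69 to 2.90). The libraries differed in the make-up of that class (301 dermal dendritic-like and 88 Langerhans-like cells in normal, 56 and 63 in IMQ), and the IMQ level was higher within both, at 2.66 times (1.81 to 3.90) and 2.43 times (1.52 to 4.05). Keratinocyte-like cells had 27.8, 45.3 and 43.1 CPM, and the IMQ level was 1.63 times the normal one (1.47 to 1.81).

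T cell-like cells had 21.9, 35.5 and 19.99 CPM of Myd88, higher in IMQ (1.62 times, 1.14 to 2.33) and 1.77-fold lower in IMQ+celastrol than in IMQ (1.15 to 2.85). Pericyte or smooth muscle-like cells went the other way between the first libraries, with 68.0, 43.2 and 40.6 CPM, and their IMQ level was 1.57-fold lower than normal (1.14 to 2.13). The blood endothelial-like and lymphatic endothelial-like ratios of 1.59 and 3.61 had intervals that include 1 (0.970 to 2.68 and 0.952 to 30.6), the latter resting on 2 normal UMIs. In fibroblast-like cells Myd88 had 46.0, 62.9 and 44.9 CPM, a ratio of 1.37 in IMQ against normal that stayed under 1.5.

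Irf5, a transcription factor activated below Myd88, stood highest in dendritic cell-like and monocyte or macrophage-like cells. The former had 101 and 128 CPM in normal and IMQ, the latter 83.5, 125 and 105 CPM in the 3 libraries. None of these class levels differed by 1.5-fold, though Langerhans-like cells had 79.6 and 129 CPM in normal and IMQ (1.62 times, 1.197 to 2.23). Keratinocyte-like cells held more Irf5 in the normal library, with 219, 231 and 354 UMIs or 14.5, 5.27 and 8.05 CPM. The IMQ level was 2.75-fold lower than normal (2.27 to 3.32), and IMQ+celastrol was 1.53 times IMQ (1.29 to 1.81).

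The same order of libraries for Irf5 appeared in both layers of keratinocytes. Basal-like keratinocytes had 14.6, 3.58 and 8.05 CPM and differentiated ones 13.9, 6.78 and 8.04 CPM. The keratinocyte-like cells of the libraries came from different clusters, mainly cluster 4 (led by Krt15 and Dapl1) in normal, and clusters led by Krt6a, Sprr2d and Krt16 in IMQ. Cluster 16, basal-like and led by Stfa3, Col17a1 and Krt5, held 11 IMQ and 521 IMQ+celastrol cells, and its Irf5 level in IMQ+celastrol was 11.1 CPM. In the clusters that both libraries filled, IMQ+celastrol against IMQ gave 1.53 in cluster 10 (1.096 to 2.13), 1.13 in cluster 14 (0.809 to 1.59) and 1.27 in cluster 24 (0.837 to 1.89). Fibroblast-like cells had 33, 35 and 48 Irf5 UMIs, or 3.10, 1.22 and 2.77 CPM, 2.53-fold lower in IMQ than normal (1.52 to 4.19) and 2.27 times as high in IMQ+celastrol as in IMQ (1.43 to 3.61).

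Tlr2, the surface receptor for bacterial lipoproteins, was at least 1.5-fold higher in IMQ than in normal in 3 of the 4 classes where it had enough UMIs to compare. In monocyte or macrophage-like cells it had 25, 977 and 82 UMIs, giving 86.9 CPM (56.3 to 128), 272 CPM (255 to 289) and 165 CPM (131 to 205). The 3 intervals do not overlap, with normal lowest and IMQ highest. The IMQ level was 3.13 times the normal one (2.10 to 4.85), and IMQ+celastrol was 1.65-fold lower than IMQ (1.32 to 2.09). Cells with a Tlr2 UMI made up 15.7%, 59.2% and 37.9% of the class, and 16.4%, 37.1% and 18.9% after thinning to 2000 UMIs. T cell-like cells, set beside it for comparison, had shares of 0%, 0.532% and 0.578% at medians of 2763.5, 3196.5 and 2523.5 UMIs. Of their Tlr2 UMIs, 3 in IMQ and 2 in IMQ+celastrol were in cluster 22, led by Il17a, Il17f and Il22. Whether these came from the T cell-like cells or from free RNA was not tested.

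Between IMQ and normal, the Tlr2 ratio was smaller inside the named clusters of that class than over the class. Tissue macrophage-like cells had 72.4, 94.5 and 27.8 CPM (17, 45 and 2 UMIs), and inflammatory monocyte-like cells had 152, 299 and 188 CPM. Neutrophil-like cells had 189 CPM in IMQ and 220 CPM in IMQ+celastrol, with overlapping intervals. In dendritic cell-like cells the normal and IMQ levels were 32.7 and 37.3 CPM, a ratio of 1.14 (0.811 to 1.61).

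**Figure D2:**
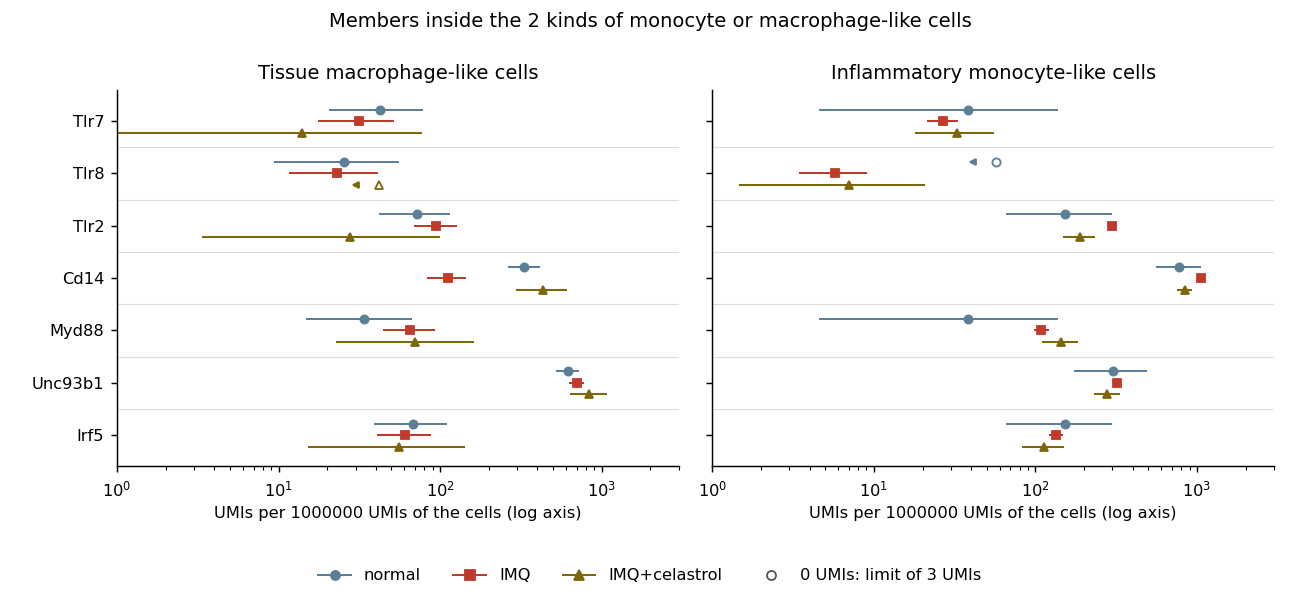
Levels of 7 of the genes (UMIs per 1000000 UMIs of the cells, log axis) in tissue macrophage-like and inflammatory monocyte-like cells of the 3 libraries. Bars are exact Poisson 95% intervals, and open symbols are 0 UMIs at the limit of 3 UMIs. Cd14 in tissue macrophage-like cells was lowest in IMQ, at 111 CPM, while in inflammatory monocyte-like cells it was highest in IMQ, at 1061 CPM.

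Fibroblast-like cells also carried Tlr2, with 85, 531 and 236 UMIs or 7.98 CPM (6.37 to 9.87), 18.6 CPM (17.0 to 20.2) and 13.6 CPM (11.96 to 15.5). The order was normal, IMQ+celastrol, IMQ, with no overlap of intervals. IMQ was 2.33 times normal (1.85 to 2.96), and IMQ+celastrol against IMQ gave a ratio of 0.734 (0.627 to 0.857), short of 1.5-fold. The class drew on different clusters in the libraries, mainly cluster 0 (led by Cyp2f2, Cpz and Cdh4) and a dermal papilla-like cluster of 528 cells in normal, and cluster 1 (Tnc, Mmp3, Penk) and cluster 12 (Saa3, Cxcl13, Ptx3) in IMQ. In the IMQ library, Tlr2 was 40.6 CPM in cluster 1 and 6.11 CPM in cluster 12. Keratinocyte-like cells had 7, 58 and 41 Tlr2 UMIs, or 0.463, 1.32 and 0.932 CPM. T cell-like cells of IMQ and IMQ+celastrol had 1.19 and 1.60 CPM. In IMQ, 4.77% of keratinocyte-like cells (median of 41376 UMIs per cell) and 0.532% of T cell-like cells (3196.5) had a Tlr2 UMI, or 0.505% and 0.333% after thinning. The part of free RNA in these counts was not tested.

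Tlr4, the receptor for bacterial lipopolysaccharide, was found mainly outside leukocytes: stromal classes held 73.6%, 71.7% and 63.7% of its UMIs. Fibroblast-like cells had 129, 641 and 233 UMIs, for 12.1 CPM (10.1 to 14.4), 22.4 CPM (20.7 to 24.2) and 13.5 CPM (11.8 to 15.3). IMQ stood apart and the other libraries overlapped. The IMQ level was 1.85 times the normal one (1.53 to 2.26), and IMQ+celastrol was 1.67-fold lower than IMQ (1.43 to 1.94). Without the dermal papilla-like cluster, which held cells of the normal library only, the IMQ against normal ratio was 1.43, under 1.5, and that of Myd88 was 1.69, over it.

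Within single fibroblast-like clusters the Tlr4 difference varied. Cluster 2 had 26.6, 28.8 and 15.7 CPM, so its IMQ against normal ratio was 1.09 (0.686 to 1.80) and its IMQ+celastrol level was 1.84-fold lower than IMQ (1.37 to 2.49). The largest difference was in cluster 6, led by Tnn, Lrrc15 and Postn, which scored highest for fibroblast markers and stayed unnamed by the naming rule (258, 336 and 338 cells). There Tlr4 had 5, 45 and 5 UMIs, or 3.02, 24.5 and 1.93 CPM, 8.10 times as high in IMQ as in normal (3.23 to 26.2). Tlr2 in the same cluster had 2, 63 and 24 UMIs, or 1.21, 34.2 and 9.25 CPM, and Myd88 had 26.6, 114 and 42.8 CPM. Cluster 6 was singled out after its values were seen. Cluster 13 also scored highest for fibroblast markers and stayed unnamed. There Tlr4 had 13, 95 and 74 UMIs, or 43.7, 34.4 and 28.8 CPM, so it was not higher in IMQ than in normal.

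Among leukocytes, Tlr4 was highest in neutrophil-like cells, with 30 UMIs in IMQ (42.5 CPM, 28.7 to 60.7) and 11 in IMQ+celastrol (52.7 CPM, 26.3 to 94.3). Monocyte or macrophage-like cells had 2, 44 and 7 UMIs, or 6.95, 12.2 and 14.1 CPM, with a ratio of 1.76 in IMQ against normal whose interval (0.459 to 14.98) includes 1. Blood endothelial-like cells had 17.0 CPM in normal and 25 CPM in IMQ, from 12 and 23 UMIs. Lymphatic endothelial-like cells had no Tlr4 UMI in any library, and T cell-like cells had 0, 3 and 0.

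Cd14, the co-receptor that serves Tlr4 and Tlr2, had 634, 6989 and 1200 UMIs over all kept cells, and leukocytes held 76.5%, 90.7% and 77.8% of them. In neutrophil-like cells, its highest class, it had 2826 UMIs in IMQ and 503 in IMQ+celastrol, or 4006 CPM (3859 to 4156) and 2409 CPM (2203 to 2629). IMQ+celastrol was 1.66-fold lower (1.51 to 1.83), and the share of cells with a UMI was 97.2% against 73.9%, or 96.2% against 76.4% after thinning. T cell-like cells, which should lack Cd14, had shares of 0.147%, 0.798% and 0.578% in the 3 libraries.

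Monocyte or macrophage-like cells had 119, 3363 and 389 Cd14 UMIs, or 414 CPM (343 to 495), 935 CPM (904 to 967) and 782 CPM (706 to 864). IMQ was 2.26 times normal (1.88 to 2.74), and IMQ+celastrol was 1.196-fold lower than IMQ. This class level mixed opposite differences. In tissue macrophage-like cells Cd14 was 332, 111 and 432 CPM (78, 53 and 31 UMIs), a ratio of 0.335 in IMQ against normal (0.232 to 0.481), while in inflammatory monocyte-like cells it was 779, 1061 and 841 CPM.

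Dendritic cell-like cells had 144 CPM of Cd14 in normal and 76.9 CPM in IMQ, 1.87-fold lower (1.53 to 2.30). Inside that class, Langerhans-like cells had 7 and 64 UMIs (9.77 and 48.7 CPM) and dermal dendritic-like cells 337 and 72 UMIs (201 and 159 CPM). With no doublet removal the log2 ratio of the class was -0.25 in place of -0.90.

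In stroma, Cd14 was low, and in several classes it was higher in the IMQ library. Fibroblast-like cells had 39, 247 and 66 UMIs, or 3.66, 8.64 and 3.82 CPM, 2.36 times as high in IMQ as in normal (1.68 to 3.40) and 2.27-fold lower in IMQ+celastrol than in IMQ (1.72 to 3.02). Blood endothelial-like cells had 7 and 50 UMIs in normal and IMQ, or 9.94 and 54.4 CPM (5.47 times, 2.47 to 14.3). Lymphatic endothelial-like cells had 1, 56 and 12 UMIs, or 5.21, 39.8 and 11.9 CPM. Their IMQ against normal ratio of 7.63 had an interval of 1.32 to 307, and IMQ+celastrol was 3.33-fold lower than IMQ (1.76 to 6.82).

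Pericyte or smooth muscle-like cells went the other way, with 25, 19 and 6 Cd14 UMIs, or 33.3, 2.95 and 1.04 CPM. Of the 25 normal UMIs, 17 came from 1 cell, and without the cell of most UMIs in each library the difference was smaller (log2 ratio of Cd14, pericyte or smooth muscle-like cells, IMQ against normal: -2.21 in place of -3.50). Keratinocyte-like cells had 1.06, 4.63 and 2.82 CPM of Cd14. T cell-like cells had 0.477, 3.88 and 2.40 CPM. In IMQ the shares of cells with a Cd14 UMI were 15.1% and 0.798% in these classes, or 0.808% and 0.499% after thinning. The part of free RNA was not tested here either.

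Transcripts of myeloid cells were present in the stromal classes as well. The summed level of 14 myeloid marker genes was 39.7, 53.6 and 36.6 CPM in fibroblast-like cells, where 13, 14 and 14 of the markers had a UMI and Itgam was at 0 in normal. In keratinocyte-like cells it was 12.9, 26.5 and 12.2 CPM with all 14 detected. It was 17.0 and 29.4 CPM in normal and IMQ blood endothelial-like cells, and 52.1, 46.8 and 27.9 CPM in lymphatic endothelial-like cells. The sum in monocyte or macrophage-like cells was 32396, 31659 and 28817 CPM. The part of such transcripts in the stromal Cd14 and Tlr2 levels was not tested.

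**Figure D3:**
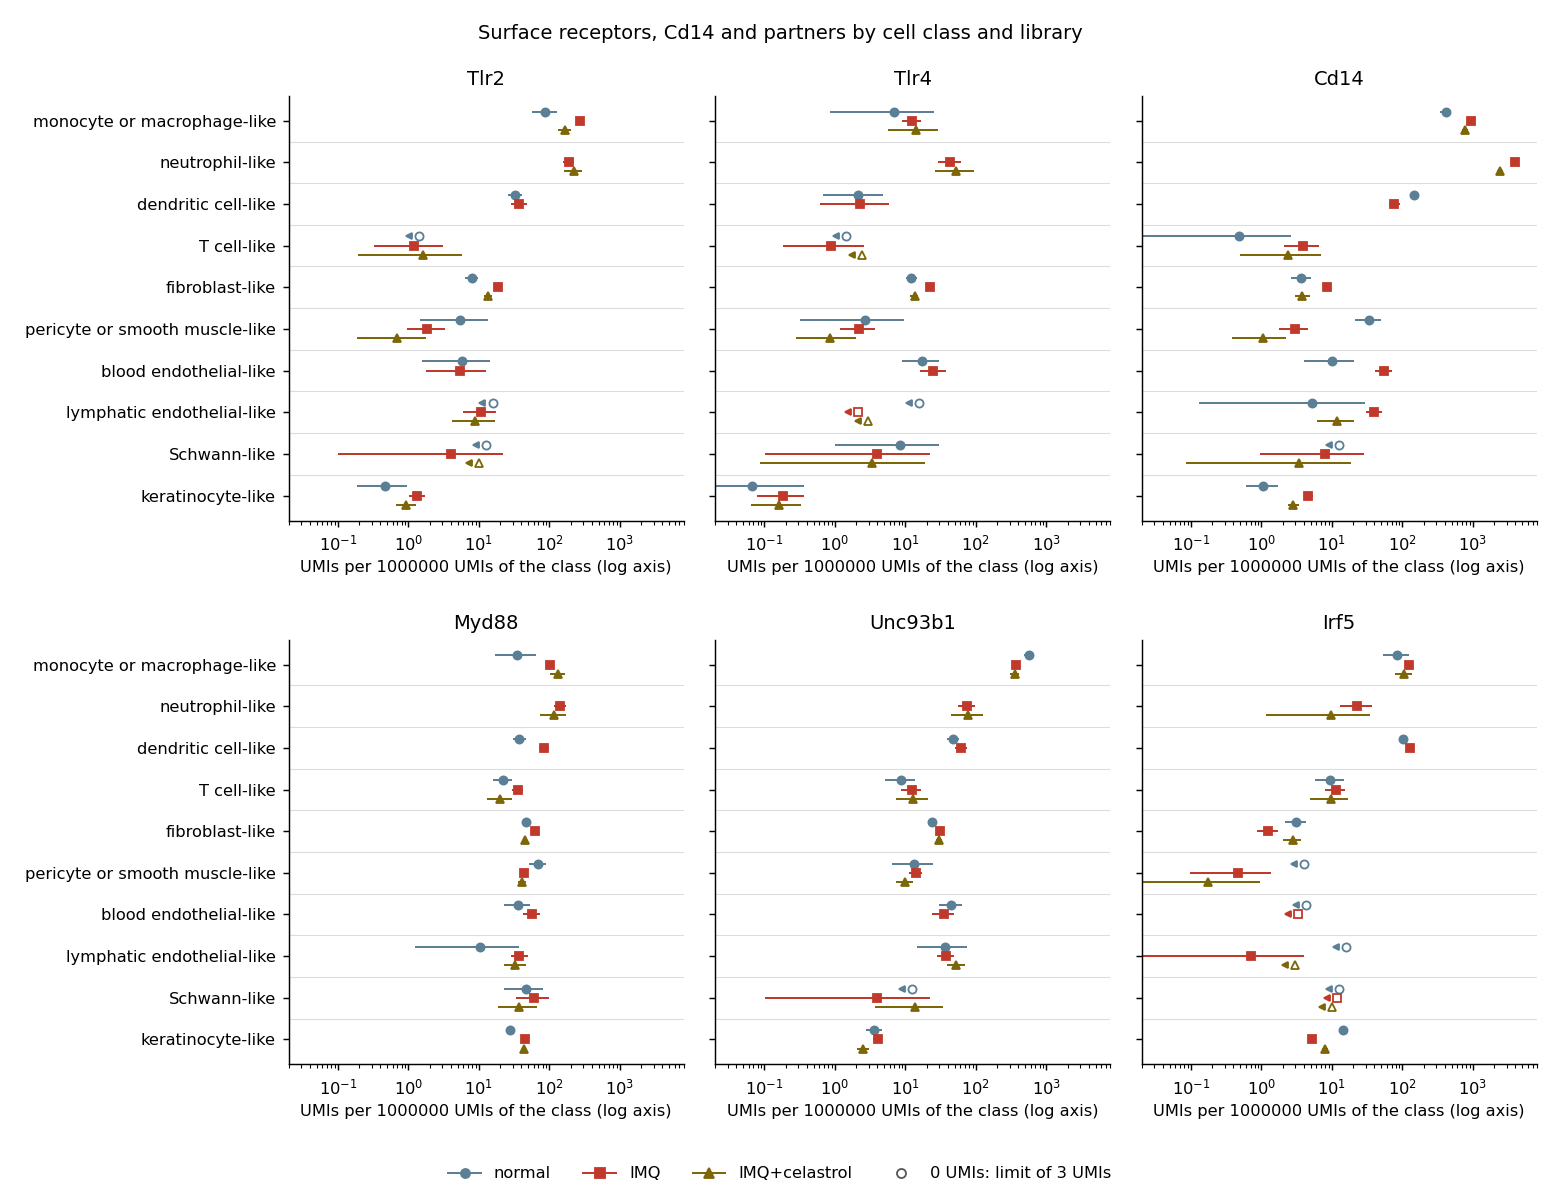
Levels of Tlr2, Tlr4, Cd14, Myd88, Unc93b1 and Irf5 (UMIs per 1000000 UMIs of the class, log axis) in 10 cell classes of the 3 libraries, for classes with at least 50 cells in the library. Bars are exact Poisson 95% intervals, cut at the left edge of the axis where they run past it, and open symbols with an arrow are 0 UMIs at the limit of 3 UMIs. Cd14 and Tlr2 were highest in myeloid classes, Tlr4 was spread over stroma and neutrophil-like cells, and Myd88 was present in all classes.

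Calls at 1.5-fold were counted over 9 classes with at least 50 cells in both libraries, for genes with at least 20 UMIs over both. In IMQ against normal, 38 of 81 pairs of gene and class had enough UMIs, from 8 of the 9 genes, since Tlr9 had too few in every class. Of the 38, 16 were higher, 8 lower and 14 neither, where over all genes and classes 19.7% of pairs were higher and 19.4% lower. The interval excluded 1 in 13 of the 16 and in 6 of the 8. The 16 hold Tlr2 and Cd14 in keratinocyte-like cells, at 1.32 and 4.63 CPM in IMQ. All 16 belonged to Myd88 (6), Cd14 (5), Tlr2 (3) and Tlr4 (2). The lower pairs were of Cd14 and Irf5 (2 each), and of Myd88, Tlr7, Tlr8 and Unc93b1 (1 each).

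By class, monocyte or macrophage-like cells had 4 of 8 measured genes higher and 3 lower, against 27.9% and 20.4% of all genes there. Fibroblast-like cells had 3 of 6 higher and 1 lower (all genes 11.2% and 25.7%), and keratinocyte-like cells 3 of 5 higher and 1 lower (21.0% and 26.5%). In dendritic cell-like cells 1 of 5 was higher and 1 lower (23.1% and 12.0%). The median log2 ratio of the measured members was 0.70 in monocyte or macrophage-like, 0.67 in fibroblast-like and 0.70 in keratinocyte-like cells, against 0.04, -0.19 and -0.08 over all genes.

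In IMQ+celastrol against IMQ, which shares the IMQ library with the first comparison, 37 of 81 pairs had enough UMIs. Of these 2 were higher, 11 lower and 24 neither, where over all genes and classes 11.6% of pairs were higher and 10.4% lower. The interval excluded 1 in both higher pairs and in 9 of the 11 lower ones. Both higher pairs were Irf5, in fibroblast-like and keratinocyte-like cells. The lower pairs were of Cd14 (5), Myd88 (3), Tlr2, Tlr4 and Unc93b1 (1 each).

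Monocyte or macrophage-like cells had none of 8 measured members higher and 1 lower (all genes 12.4% and 18.4%), and neutrophil-like cells none of 5 higher and 1 lower (19.7% and 18.2%), so their counts lie near or under the background. Fibroblast-like cells had 1 of 6 higher and 2 lower (13.4% and 7.39%), and keratinocyte-like cells 1 of 5 higher and 2 lower (12.2% and 8.53%). The members' median log2 ratio was -0.15 in monocyte or macrophage-like, -0.47 in fibroblast-like and -0.51 in keratinocyte-like cells, against -0.05, 0.13 and 0.02 over all genes.

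**Figure D4:**
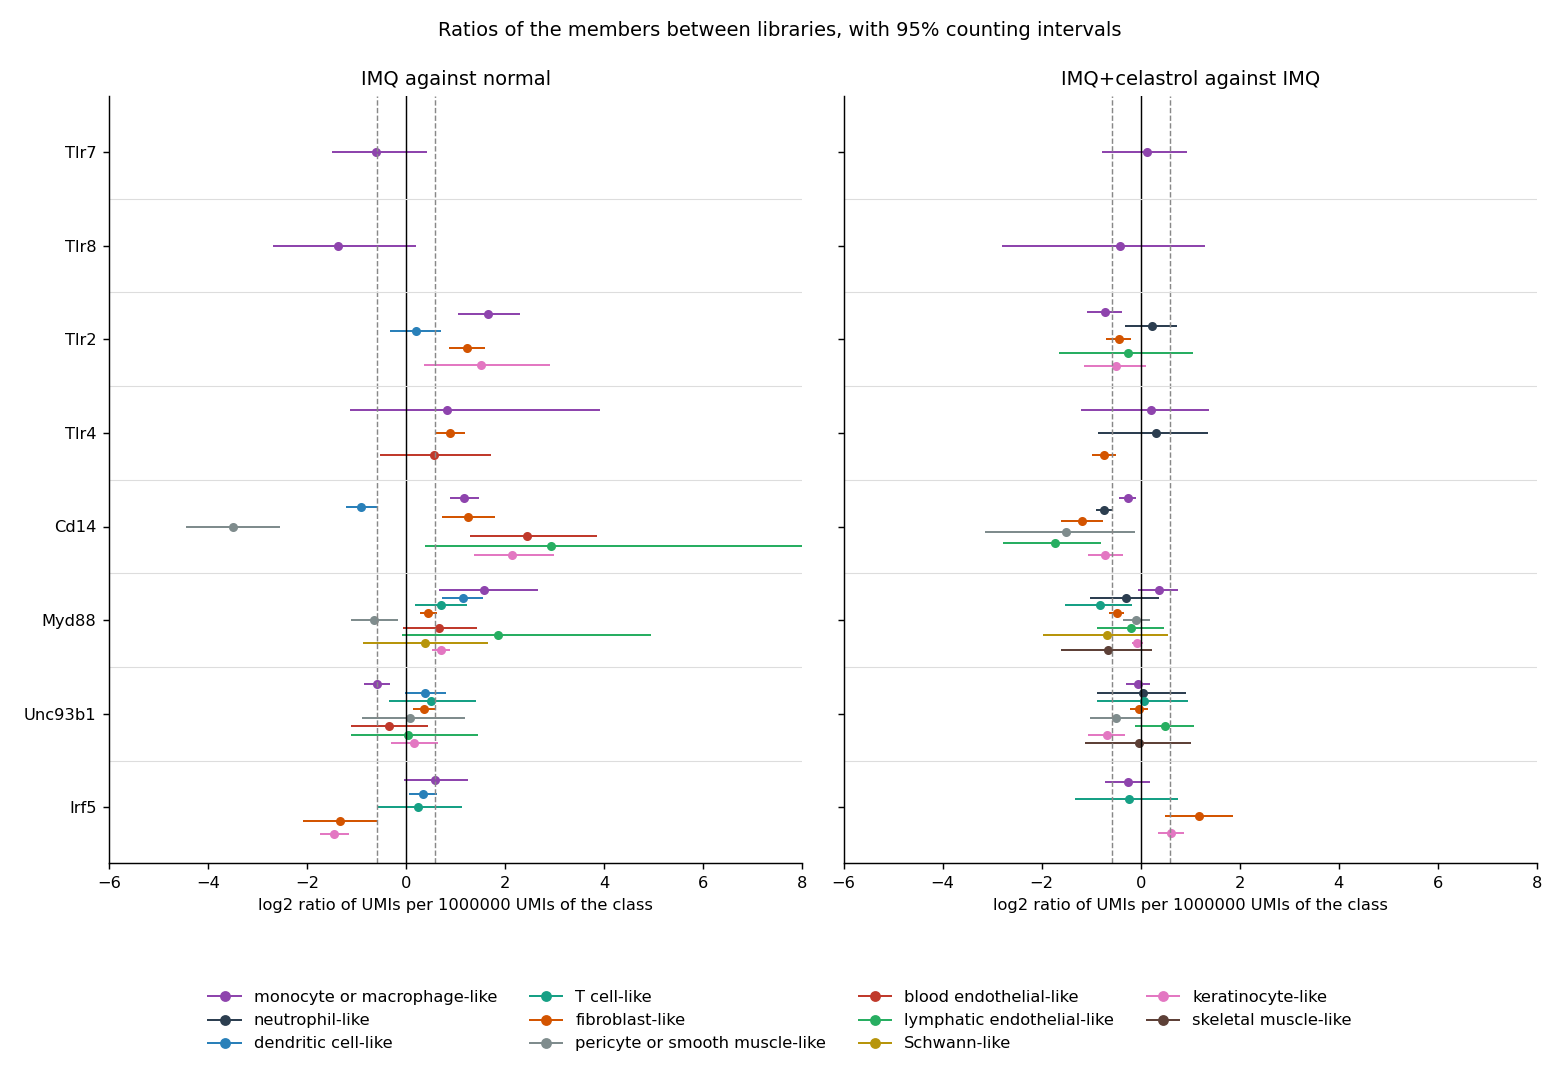
Log2 ratios of class levels in IMQ against normal (left) and in IMQ+celastrol against IMQ (right), for each gene and class with at least 20 UMIs over both libraries. Points are ratios, bars exact conditional binomial 95% intervals (which may run past the axis), and dashed lines mark 1.5-fold. Tlr9 has no point, Cd14 and Myd88 spread to both sides in IMQ against normal, and 11 points lie beyond the lower dashed line in IMQ+celastrol against IMQ.

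A list of 54 other genes of Toll-like receptor pathways was read the same way. In IMQ against normal, 13 of 44 measured genes were higher and 8 lower in monocyte or macrophage-like cells (all genes 27.9% and 20.4%), and 13 of 40 and 4 in dendritic cell-like cells (23.1% and 12.0%). Fibroblast-like cells had 12 of 40 higher and 4 lower (all genes 11.2% and 25.7%), and keratinocyte-like cells 7 of 36 and 4 (21.0% and 26.5%). The monocyte or macrophage-like and keratinocyte-like higher counts lie near the all-gene shares. In monocyte or macrophage-like cells the highest ratios were those of Irak3, an inhibitor of the kinases below Myd88, and of the kinase gene Irak2. Irak3 had 10.4 CPM in normal and 55.3 in IMQ (5.30 times, 1.79 to 25.9, from 3 normal UMIs). Irak2 had 17.4 and 72.0 CPM (4.14 times, 1.75 to 12.9, from 5 normal UMIs). Cd36, a scavenger receptor that works with Tlr2, was 177 and 23.9 CPM there, and the endosomal protease gene Ctsb 2406 and 981 CPM. Within tissue macrophage-like cells, Irak3 was 8.51 and 79.8 CPM, Cd36 217 and 126 CPM and Ctsb 2762 and 1504 CPM, while Irak2 had 3 and 4 UMIs. The normal Irak3 level there rests on no more than the 3 UMIs of the class. None of the 11 measured trafficking and cleavage genes was higher in IMQ in that class.

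In fibroblast-like cells Lbp, which encodes the lipopolysaccharide-binding protein that loads Cd14, had 106 CPM in normal and 595 CPM in IMQ (5.59 times, 5.26 to 5.94). Cd36 had 2.25 and 24.0 CPM, and Lgmn, an endosomal protease, 37.1 and 181 CPM. Irf1 was 1.61-fold lower in IMQ (1.53 to 1.70). The class drew on different clusters, with 1 normal and 1065 IMQ cells in cluster 1, and 0 and 592 in cluster 12. The part of this make-up in these fibroblast-like ratios was not tested. Keratinocyte-like cells had 1 UMI of Tirap, the bridging adaptor of Tlr2 and Tlr4, in normal and 201 in IMQ, a ratio of 69.4 with an interval of 12.3 to 2755. They had 0 and 165 UMIs of Lbp, 19-fold higher in IMQ with the normal count set to 3 UMIs. The exact interval from 0 and 165 UMIs starts at 15.27-fold higher. The summed level of 7 fibroblast markers in keratinocyte-like cells was 108, 185 and 333 CPM in normal, IMQ and IMQ+celastrol, with a UMI of all 7 in each, against 59232, 38693 and 51937 CPM in fibroblast-like cells. Its part in the Lbp counts was not tested. Tlr3, the receptor for double-stranded RNA, was 2.80-fold lower in IMQ keratinocyte-like cells (2.07 to 3.79). Those cells also lay in different clusters, with 988 normal and 0 IMQ cells in cluster 4, and 0 and 355 in cluster 24. The part of this make-up in the Tirap, Lbp and Tlr3 ratios was not tested.

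Dendritic cell-like cells had higher levels of the interferon regulatory factors Irf7 (11.7 CPM in normal and 37.9 in IMQ) and Irf8 (171 and 369 CPM). Their make-up differed between the libraries, with 301 dermal dendritic-like and 88 Langerhans-like cells in normal and 56 and 63 in IMQ. Irf8 was higher within both (189 and 501 CPM, and 130 and 324 CPM). Irf7 was 13.7 and 121 CPM in the former, and in Langerhans-like cells 6.98 and 9.13 CPM, a ratio of 1.31 (0.429 to 4.74).

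All 4 measured genes of the other receptors and co-receptors were at least 1.5-fold lower over dendritic cell-like cells. Cd36 had 41 UMIs in normal and 0 in IMQ, 10.1-fold lower with the IMQ count set to 3. The exact interval from 41 and 0 UMIs starts at 7.86-fold lower. Ly96, the Tlr4 partner MD-2, was 4.81-fold lower (2.27 to 11.7). Ly86 and Cd180, which form a receptor complex in B cells and dendritic cells, had 159 and 13.8 CPM in normal and 88.3 and 9.05 CPM in IMQ, and the Cd180 interval includes 1 (1.53-fold lower, 0.816 to 2.97). Within dermal dendritic-like cells Ly86 and Cd180 did not have the lower level in IMQ, with ratios of 1.36 (1.104 to 1.67) and 1.53 (0.711 to 3.09), and Ly96 was 2.27-fold lower (0.901 to 7.36). In Langerhans-like cells Ly86 was 1.91-fold lower (1.07 to 3.40) and Ly96 6.12-fold lower (1.58 to 34.6, from 10 and 3 UMIs). The share of all measured genes that were lower in the class was 12.0%.

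In IMQ+celastrol against IMQ, 3 of 40 measured list genes were higher and 7 lower in fibroblast-like cells (all genes 13.4% and 7.39%), and 1 of 36 and 3 in keratinocyte-like cells (12.2% and 8.53%). There were 1 of 45 higher and 8 lower in monocyte or macrophage-like cells (12.4% and 18.4%), and 6 of 24 and 6 in neutrophil-like cells (19.7% and 18.2%). The lower counts of keratinocyte-like and monocyte or macrophage-like cells, and both counts of neutrophil-like cells, lie near the all-gene shares. In fibroblast-like cells Lbp was 3.44-fold lower, at 173 CPM (interval 3.31 to 3.57), and Cd36 12.2-fold lower, at 1.97 CPM (8.64 to 17.8). The fibroblast-like cells of these libraries lay in different clusters, with 1065 IMQ and 58 IMQ+celastrol cells in cluster 1, 592 and 97 in cluster 12, 31 and 547 in cluster 0, and 132 and 419 in cluster 3. Lbp was also lower within the clusters shared by both: 920 and 256 CPM in cluster 2, and 529 and 135 CPM in cluster 11. Cd36 had 21.0 and 3.18 CPM in cluster 11, but 1 and 3 UMIs in cluster 2 and 6.69 and 8.51 CPM in cluster 1. Irf7, the factor that drives interferon genes below Tlr7 and Tlr9, was higher in fibroblast-like cells (37.7 CPM in IMQ and 72.5 in IMQ+celastrol) and in monocyte or macrophage-like cells (107 and 179 CPM). Irak3 was lower in monocyte or macrophage-like cells (55.3 and 26.1 CPM) and in neutrophil-like cells (82.2 and 23.9 CPM, from 58 and 5 UMIs). Neutrophil-like cells had 1.60 times as much Irf1 in IMQ+celastrol (234 and 374 CPM, 1.204 to 2.10).

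Across 31 sums of class and library from 13 classes, the genes with the profile most like that of Tlr7, among 14115 genes, were Aoah (Pearson r = 0.95 of log2 CPM with 1 added), Gm36161 (0.91), Ms4a7 (0.90) and Msr1 (0.90). Tlr2 lay closest to Cd14 (0.92), Cd33 (0.90), Wfdc17 (0.89) and Oas2 (0.89), and Cd14 to Wfdc17 (0.93), Clec4d (0.92), Lilra6 (0.92) and Pira2 (0.92). For Tlr9 the closest were H2-DMb2 (0.96), Cd207 (0.96), H2-M5 (0.93) and Ccl22 (0.93), but its profile rested on 8 UMIs. The sums share libraries and class totals, so these values are descriptions of the profiles only.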

How the data were processed

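Each deposited matrix holds counts of UMIs by gene and cell barcode. Per the file headers, the authors ran Cell Ranger 4.0.0. Per the submitters' processing notes the builds were mm10 and GRCm38, and other settings are not given in the sources used here. Total depth was 77880943 UMIs over 10565 barcodes (normal), 119831835 over 8236 (IMQ) and 103267738 over 6777 (IMQ+celastrol).

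Barcodes with fewer than 300 genes or more than 20% mitochondrial UMIs were left out. Scrublet called 182, 0 and 92 doublets, so the top-scoring cells, as a share that grows with the number of cells, were left out by 1 rule in every library (870, 513 and 330). Counts scaled to 10000 per cell and log-transformed, 2000 variable genes without the members and pathway genes, 30 principal components and 15 neighbours gave 43 Leiden clusters at resolution 1 (scanpy 1.11.5, leidenalg 0.10.2, scikit-learn 1.9.0, scipy 1.17.1). A cluster was named where its best marker score was at least 0.25 and 1.2 times the next, with at least 3 markers detected and no other class with more markers among its top 10 genes. Of the clusters, 9 stayed unnamed.

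UMIs were summed per class and library. Since each group is 1 library, there was no test. A gene was called at 1.5-fold with at least 20 UMIs over both libraries. The calling script was tested on simulated data. The text names all 9 genes, some of the pathway genes that the rule allowed (the 4 of largest ratio in each direction and class; which of them are named was decided after their values were seen), and the 4 genes most like Tlr7, Tlr9, Tlr2 and Cd14. The members, gene lists and markers were chosen with earlier results of these data known. Alternatives changed doublet removal, naming, clustering, the mitochondrial limit, scaling, cell weights, depth, top cells and the UMI minimum. The alternatives on single clusters were chosen after seeing the data.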

Additional observations from a re-analysis of the deposited data

Results flagged for a closer look

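In IMQ against normal, Cd14 differed in opposite directions between stromal classes. Its log2 ratio was 2.93 in lymphatic endothelial-like cells (56 UMIs in IMQ and 1 in normal) and -3.50 in pericyte or smooth muscle-like cells (19 and 25 UMIs), a difference of 6.43. Myd88 did likewise, with 1.85 in lymphatic endothelial-like cells (53 and 2 UMIs) and -0.65 in pericyte or smooth muscle-like cells (278 and 51 UMIs), a difference of 2.51. These differences between classes were not tested, since each rests on 1 library per group, and the normal counts in lymphatic endothelial-like cells are very small. Of the 25 normal Cd14 UMIs in pericyte or smooth muscle-like cells, 17 came from 1 cell, and the difference was smaller without the top cells.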

How the results depend on the processing

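No paired analysis was possible because each group is 1 library and the labels give no replicate numbers. The counts reported were 16 pairs of gene and class higher and 8 lower in IMQ against normal, and 2 higher and 11 lower in IMQ+celastrol against IMQ. Pairs lower in IMQ against normal numbered 4 with no doublet removal, and 5 with each library clustered by itself, with cells thinned to 2000 UMIs, or without the cell of most UMIs. Pairs higher in IMQ against normal numbered 10 after thinning. Pairs higher in IMQ+celastrol against IMQ numbered 1 with no doublet removal or with each cluster given the name of highest score, and 4 after thinning. With no minimum of UMIs the counts were 32 higher in IMQ against normal, and 5 higher and 26 lower in IMQ+celastrol against IMQ. The log2 ratio of Tlr7, monocyte or macrophage-like cells, IMQ against normal, was -0.60 and turned to 0.16 when libraries were clustered separately. In the tissue macrophage-like cluster alone, an alternative added after seeing the data, Cd14 turned from 1.18 to -1.58 and Unc93b1 from -0.59 to 0.19. Other log2 ratios moved without turning: 23 of 70 after thinning, 10 of 75 with no doublet removal and 6 of 64 with libraries clustered separately. Of the shares of cells with a UMI, 138 of 189 moved after thinning. In each case the cause was not tested. No count moved by over 1.5 times with Scrublet's own calls, a mitochondrial limit of 10%, median-of-ratios scaling, equal cell weights or a minimum of 50 UMIs. Depth limits Tlr7, Tlr8 and Tlr9 most, with at most 120, 38 and 4 UMIs in a library.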
